A study of Bos taurus with 16 samples.

Results

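CC chemokines are small secreted proteins that draw leukocytes into tissue. The set described here holds 10 CC chemokine ligand genes: CCL2, CCL3, CCL4, CCL5, CCL8, CCL14, CCL19, CCL21, CCL24 and CCL25. They were found on the array by the gene names, accessions and descriptions of its spots, and each had 1 probe, so the set covers 10 of 15208 probes. Of the 12 CC ligand genes named on the array, CCL11 (eotaxin) and CCL20 were not members.

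CC ligands bind G protein-coupled receptors on white blood cells and are held on tissue surfaces by heparan sulfate. CCL2 and CCL8 mainly attract monocytes, CCL3, CCL4 and CCL5 attract monocytes and T cells, CCL19 and CCL21 guide lymphocytes and dendritic cells along lymphatic routes, CCL24 attracts eosinophils, and CCL25 is best known from thymus and gut. In the corpus luteum, the progesterone-secreting gland left in the ovary after ovulation, CCL2 is known for a part in bringing in macrophages at regression.

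The samples were corpora lutea of 16 Japanese Black cows, and no treatment or genetic alteration is given. There were 4 groups, with 4 animals in each. Cyclic cows were at days 10-12 of an estrous cycle. The other 3 groups were pregnant, at days 20-25, 40-45 and 150-160, counted from insemination as day 1. Ages are not given. Total RNA of whole gland was amplified, labelled with Cy3 and read on 1-colour arrays. The design asks how the gland of the cycle differs from that of early, somewhat later and mid pregnancy. Pregnant glands were also older than cyclic ones, and the age of the gland cannot be told apart from pregnancy. Whole tissue was measured, so fewer cells of a type and less RNA per cell cannot be told apart either.

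The 75th percentile of the processed signal was between 2020 and 4288 per array, and between 71.9% and 79.6% of probes were well above background. Each of the 2 slides held 2 arrays of every group, and since each group kept to its own positions, a position effect cannot be told apart from a group effect. The mean correlation with the other arrays of a group was lowest for cyclic replicate 1 (0.972) and days 20-25 replicate 4 (0.975), and no pair of arrays in a group shared an identical value. The 9 luteal markers, among them the steroid-forming genes STAR and CYP11A1, had a summed level between 8.55 and 9.37 on the log2 scale over the 16 arrays. A summed level is the log2 of the linear signals of the tested genes of a list added together, so the brightest probes weigh most. Every level below is a log2 signal relative to the 75th percentile of its array, and levels of different probes are not compared.

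The 10 members were detected at all 4 stages, except that CCL19 was well above background on only 1 of 4 arrays of days 150-160. None of the 10 was called at any stage of pregnancy. Of the 10 members, 9 were well above background on all 16 arrays, and CCL19 was so on 12. Between cows of the same stage their levels often spread over several-fold. CCL24 averaged 3.83-fold higher on days 150-160 than in cyclic cows, CCL2 averaged 3.49-fold higher on days 150-160 than on days 20-25, and CCL8 averaged 4.53-fold lower on days 40-45 than in cyclic cows. These differences did not pass the threshold of limma, an adjusted p under 0.05 over all tested probes.

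Against cyclic cows, limma called 0 of 10 members on days 20-25, where it called 0.293% of 11941 tested probes. On days 40-45 it called 0 of 10 members and 1.23% of probes, and on days 150-160 it called 0 of 10 members and 7.98% of 11940 probes. The smallest adjusted p of a member was 0.402, 0.147 and 0.104 in these 3 comparisons, taken in stage order. An unadjusted limma p under 0.05 was reached by 0 of 10 members on days 20-25 (14.1% of probes). It was reached by 4 of 10 on days 40-45 (14.7% of probes), with CCL24 higher and CCL8, CCL19 and CCL25 lower. It was reached by 2 of 10 on days 150-160 (23.5% of probes), with CCL24 higher and CCL25 lower. Pregnant and cyclic values did not overlap for 0 members on days 20-25 (7.45% of probes). They did not overlap for 2 members on days 40-45, CCL24 and CCL25 (9.7% of probes), and for 1 member on days 150-160, CCL24 (11.7% of probes). The widest gap to the background was that of the unadjusted count on days 40-45, 4 of 10 members against 14.7% of probes, and the gap was not tested.

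The median log2 difference of the 10 members from cyclic cows was -0.36 on days 20-25, -0.48 on days 40-45 and -0.43 on days 150-160, and 7 of 10 differences were negative at each stage. Over all tested probes the medians were 0.05, 0.01 and 0.03. The 3 comparisons share the cyclic arrays. Of these, replicate 4 was the highest of its group for 6 of 10 members, against 21.5% of all tested probes. Replicate 1 was the lowest for 8 of 10, against 31.2%. The part of single cows in these medians was not tested.

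Between stages of pregnancy, limma also called 0 of 10 members in each comparison. It called 0.0335% of probes on days 40-45 against days 20-25, 1.57% on days 150-160 against days 20-25 and 0.0419% on days 150-160 against days 40-45. An unadjusted p under 0.05 was reached by 0, 1 and 1 of 10 members in these 3 comparisons, where 8.41%, 13.9% and 9.22% of probes reached it, and the member was CCL2 in both cases. Values of days 40-45 and 20-25 did not overlap for 1 member, CCL8, against 8.88% of probes.

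**Figure D1:**
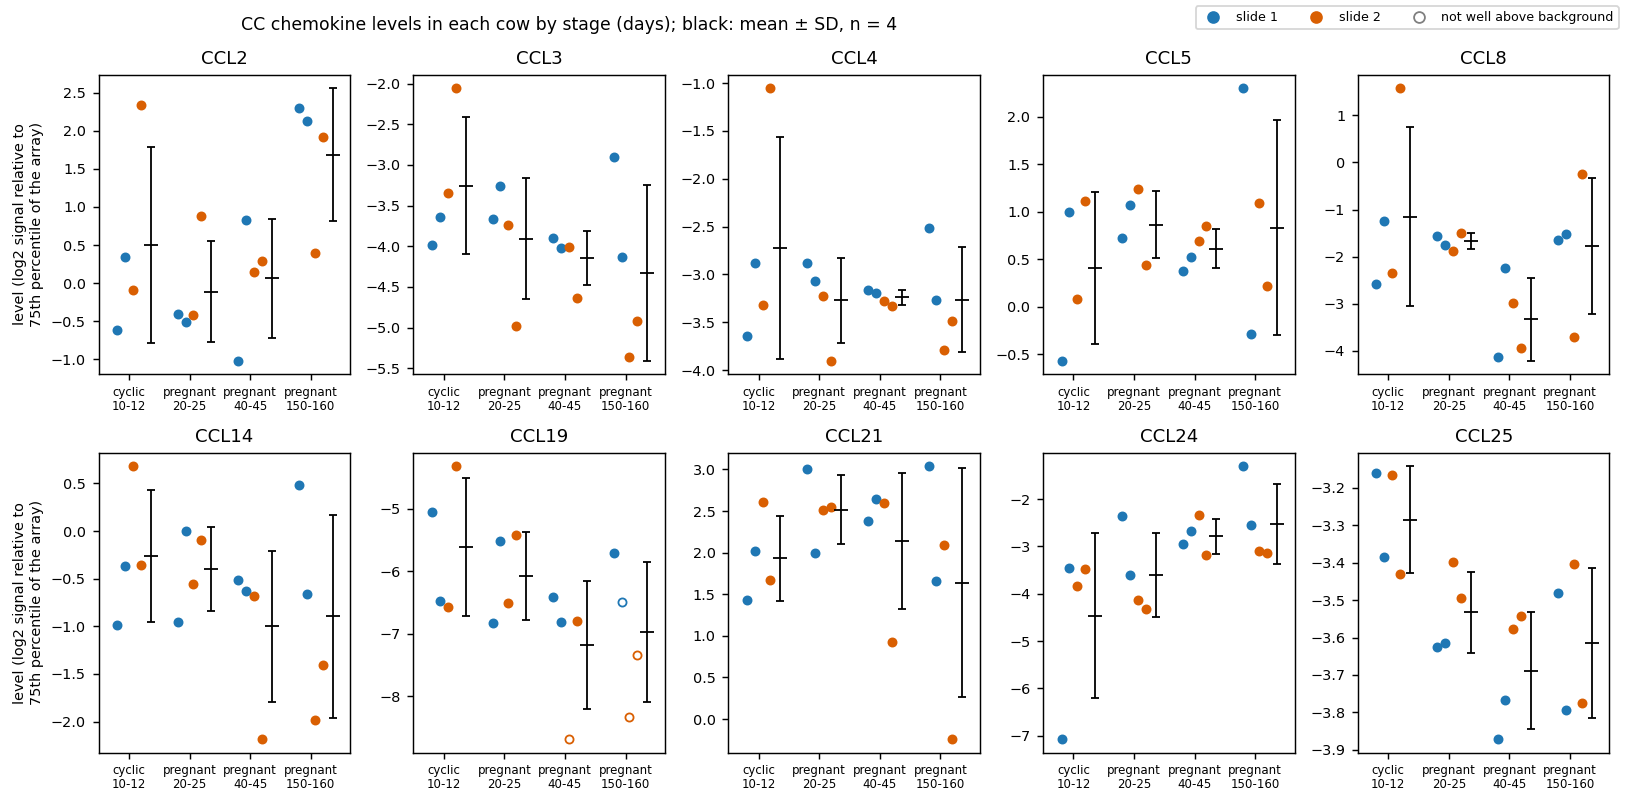
Level of each CC chemokine (vertical axis, log2 signal relative to the 75th percentile of the array) in each cow by stage (horizontal axis); points are cows, coloured by slide and open where the spot was not well above background, and black bars are mean ± SD (n = 4). Most groups overlap, CCL24 of cyclic replicate 1 stands at -7.07, and the CCL25 points stay between -3.87 and -3.16.

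CCL2 and CCL8, both monocyte attractants, lie close together on chromosome 19 with only CCL11 between them among protein-coding genes, per the RefSeq table of the assembly ARS-UCD2.0. The last 30 of the 60 bases of their array probes are shown because the probes of these neighbours must be told apart, and the longest run the 2 whole probes share is 5 bases.
CCL2: aatgattaatgcaagaacttttggttttat
CCL8: gtgtgctatgtagtattgtgatggaaagta

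The CCL2 level was -0.61, 0.35, -0.09 and 2.34 in the 4 cyclic cows, -0.40, -0.51, -0.43 and 0.88 on days 20-25, -1.02, 0.82, 0.14 and 0.30 on days 40-45, and 2.30, 2.13, 0.40 and 1.92 on days 150-160. On days 150-160, 3 of 4 cows lay near 2, a level that 1 cyclic cow also had, and every group overlapped every other. The mean on days 150-160 was 1.69 ± 0.87, against -0.12 ± 0.66 on days 20-25 (SD, n = 4 each), a log2 difference of 1.80 with a 95% interval of 0.52 to 3.08 (limma, adjusted p = 0.165). It was 1.63 above days 40-45 (interval 0.35 to 2.91, adjusted p = 0.376) and 1.19 above cyclic cows (interval -0.09 to 2.47, adjusted p = 0.249). The difference between days 150-160 and cyclic cows was 2.35 within slide 1 and 0.03 within slide 2. Without cyclic replicate 4 it was 1.81 with an adjusted p of 0.0566, the smallest of any member under any setting run. The differences of days 150-160 from days 20-25 were 2.67 and 0.93 within the slides.

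The CCL8 level was -2.58, -1.25, -2.34 and 1.58 in cyclic cows, -1.55, -1.75, -1.87 and -1.50 on days 20-25, -4.14, -2.24, -2.99 and -3.94 on days 40-45, and -1.64, -1.51, -3.70 and -0.24 on days 150-160. Cows of days 20-25 lay within less than 0.4 of each other, while cyclic cows and cows of days 150-160 were far apart among themselves. All 4 cows of days 40-45 were below all 4 of days 20-25. The mean on days 40-45 was -3.33 ± 0.88, against -1.15 ± 1.91 in cyclic cows (SD, n = 4 each), a log2 difference of -2.18 (interval -3.92 to -0.43, limma, adjusted p = 0.217). It was -1.27 within slide 1, -3.08 within slide 2 and -1.27 without cyclic replicate 4. Against days 20-25 the difference on days 40-45 was -1.66 (interval -3.40 to 0.09, adjusted p = 0.618), and within the slides it was -1.53 and -1.78.

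CCL3 and CCL4 are made by activated macrophages and T cells. They lie near each other on chromosome 19, with 1 protein-coding gene without a symbol name between them in RefSeq. The last 30 bases of both probes are shown because the levels of these genes moved together from cow to cow, and the longest run shared by the whole probes is 4 bases. The array's own name for the CCL3 probe is CCL3L1, and the CCL4 probe has only a LOC name there. Both were named CCL3 and CCL4 through RefSeq. Whether RNA of the unnamed genes nearby also binds these probes was not tested.
CCL3: ggtccaggaatacatcaccgacctggagct
CCL4: tcccctcagcagatcctgttccttctctta

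The CCL3 level was -3.99, -3.64, -3.34 and -2.06 in cyclic cows, -3.67, -3.25, -3.74 and -4.98 on days 20-25, -3.90, -4.03, -4.01 and -4.64 on days 40-45, and -2.90, -4.14, -5.36 and -4.92 on days 150-160. The highest cow was cyclic and the lowest was at days 150-160, and the groups overlapped. The mean on days 150-160 was -4.33 ± 1.08, against -3.26 ± 0.84 in cyclic cows (SD, n = 4 each), a log2 difference of -1.07 (interval -2.17 to 0.03, limma, adjusted p = 0.225). On slide 1 alone it was 0.29 and on slide 2 alone -2.44, and its direction did not hold within slides. Without days 150-160 replicate 1 it was -1.55 (adjusted p = 0.0666), and without cyclic replicate 4 it was -0.67.

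The CCL4 level was -3.64, -2.88, -3.32 and -1.05 in cyclic cows, -2.88, -3.07, -3.23 and -3.90 on days 20-25, -3.16, -3.19, -3.28 and -3.33 on days 40-45, and -2.51, -3.26, -3.79 and -3.48 on days 150-160. Cyclic replicate 4 stood above the other 15 cows, and the 4 cows of days 40-45 were nearly level (SD 0.079). The 3 stages of pregnancy differed from cyclic cows by -0.54, -0.52 and -0.54 on the log2 scale, and without cyclic replicate 4 by 0.01, 0.04 and 0.02. The difference between days 150-160 and cyclic cows had an interval of -1.48 to 0.40 (limma, adjusted p = 0.503).

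CCL5, a chemokine stored and released by T and natural killer cells, had levels of -0.57, 0.99, 0.08 and 1.12 in cyclic cows, 0.72, 1.06, 1.23 and 0.43 on days 20-25, 0.37, 0.52, 0.69 and 0.85 on days 40-45, and 2.30, -0.29, 1.09 and 0.22 on days 150-160. Both extremes of the pregnant cows were at days 150-160, and all groups overlapped. The mean was 0.86 ± 0.36 on days 20-25, against 0.41 ± 0.80 in cyclic cows (SD, n = 4 each), a log2 difference of 0.46 (interval -0.54 to 1.46, limma, adjusted p = 0.671). The differences on days 40-45 and 150-160 were 0.20 and 0.42 (adjusted p = 0.91 and 0.638), and without days 150-160 replicate 1 that of days 150-160 was -0.07.

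CCL14, in humans a chemokine found in blood plasma and activated by proteolysis, lies beyond CCL3 on chromosome 19, with 4 unnamed protein-coding genes between them. Its level was -0.99, -0.36, 0.68 and -0.36 in cyclic cows, -0.96, -0.0020, -0.55 and -0.090 on days 20-25, -0.51, -0.63, -0.68 and -2.18 on days 40-45, and 0.49, -0.67, -1.99 and -1.40 on days 150-160. The lowest cows were at the later stages, but every group overlapped every other. The mean was -1.001 ± 0.79 on days 40-45, against -0.26 ± 0.69 in cyclic cows (SD, n = 4 each), a log2 difference of -0.74 (interval -1.82 to 0.33, limma, adjusted p = 0.555). That difference was -0.35 without days 40-45 replicate 4, and 0.10 and -1.59 within the slides. On days 150-160 it was -0.63 (adjusted p = 0.489), and 0.59 and -1.86 within the slides.

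CCL19 and CCL21 are the ligands of CCR7 and are direct neighbours on chromosome 8 in RefSeq. CCL21 is made by lymphatic endothelium. The middle bases 16 to 45 of its probe are shown because they hold AATAAA (capitals), the letters of the common polyadenylation signal, searched on the probe strand only. Of all probes on the array 11.3% hold these letters, and the match is a description of where such a probe may lie in its transcript.
CCL21: tacacccaattgAATAAAcagccattctgg

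The CCL19 level was -5.05, -6.47, -6.58 and -4.32 in cyclic cows, -6.83, -5.52, -6.52 and -5.42 on days 20-25, -6.42, -6.81, -8.69 and -6.80 on days 40-45, and -5.71, -6.50, -8.33 and -7.34 on days 150-160. The processed signal of CCL19 ran from 6.62 to 138 units, and the spot was well above background on 4, 4, 3 and 1 of 4 arrays by stage. Days 40-45 replicate 3 and days 150-160 replicates 2, 3 and 4 therefore have only a bound. The mean was -7.18 ± 1.02 on days 40-45, against -5.61 ± 1.104 in cyclic cows (SD, n = 4 each), a log2 difference of -1.57 (interval -2.95 to -0.19, limma, adjusted p = 0.268), and -0.85 and -2.29 within the slides. It was -1.07 without days 40-45 replicate 3. On days 150-160 the difference of the measured values was -1.36 (adjusted p = 0.218), and -0.34 and -2.38 within the slides. Its size is uncertain, since 3 of 4 cows of days 150-160, both of those on slide 2 among them, were not well above background.

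The CCL21 level was 1.43, 2.01, 2.61 and 1.68 in cyclic cows, 3.01, 1.99, 2.51 and 2.55 on days 20-25, 2.38, 2.64, 2.60 and 0.93 on days 40-45, and 3.04, 1.65, 2.09 and -0.24 on days 150-160. The lowest and the highest cow were both at days 150-160, and the groups overlapped. The mean was 2.52 ± 0.41 on days 20-25, against 1.93 ± 0.51 in cyclic cows (SD, n = 4 each), a log2 difference of 0.58 (interval -0.61 to 1.77, limma, adjusted p = 0.646). The differences on days 40-45 and 150-160 were 0.20 and -0.30 (adjusted p = 0.926 and 0.804). Without days 150-160 replicate 4 the difference on days 150-160 was 0.33.

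CCL24, a ligand of CCR3 and like CCL11 an attractant of eosinophils, is on chromosome 25. Its level was -7.07, -3.45, -3.84 and -3.49 in cyclic cows, -2.36, -3.61, -4.13 and -4.32 on days 20-25, -2.95, -2.67, -2.33 and -3.18 on days 40-45, and -1.31, -2.55, -3.09 and -3.13 on days 150-160. All 8 cows of the later stages were above all 4 cyclic cows, and cyclic replicate 1 was far below the other 15. The mean was -2.52 ± 0.85 on days 150-160, against -4.46 ± 1.75 in cyclic cows (SD, n = 4 each), a log2 difference of 1.94 (interval 0.45 to 3.42, limma, adjusted p = 0.104). It was 3.33 within slide 1, 0.55 within slide 2 and 1.07 without cyclic replicate 1. On days 40-45 the difference was 1.68 (interval 0.19 to 3.16, adjusted p = 0.273), 2.45 and 0.91 within the slides, and 0.81 without cyclic replicate 1.

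CCL25, the ligand of CCR9, is on chromosome 7. Its level was -3.16, -3.38, -3.17 and -3.43 in cyclic cows, -3.62, -3.61, -3.40 and -3.49 on days 20-25, -3.87, -3.77, -3.58 and -3.54 on days 40-45, and -3.48, -3.79, -3.40 and -3.78 on days 150-160. All 4 cows of days 40-45 were below all 4 cyclic cows, by a small step. The mean was -3.69 ± 0.16 on days 40-45, against -3.29 ± 0.14 in cyclic cows (SD, n = 4 each), a log2 difference of -0.40 or 1.32-fold (interval -0.68 to -0.13, limma, adjusted p = 0.147). On days 20-25 and 150-160 it was -0.25 and -0.33 (adjusted p = 0.402 and 0.138). The direction held within both slides at each stage, with -0.35 and -0.15 on days 20-25, -0.55 and -0.26 on days 40-45 and -0.37 and -0.29 on days 150-160.

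**Figure D2:**
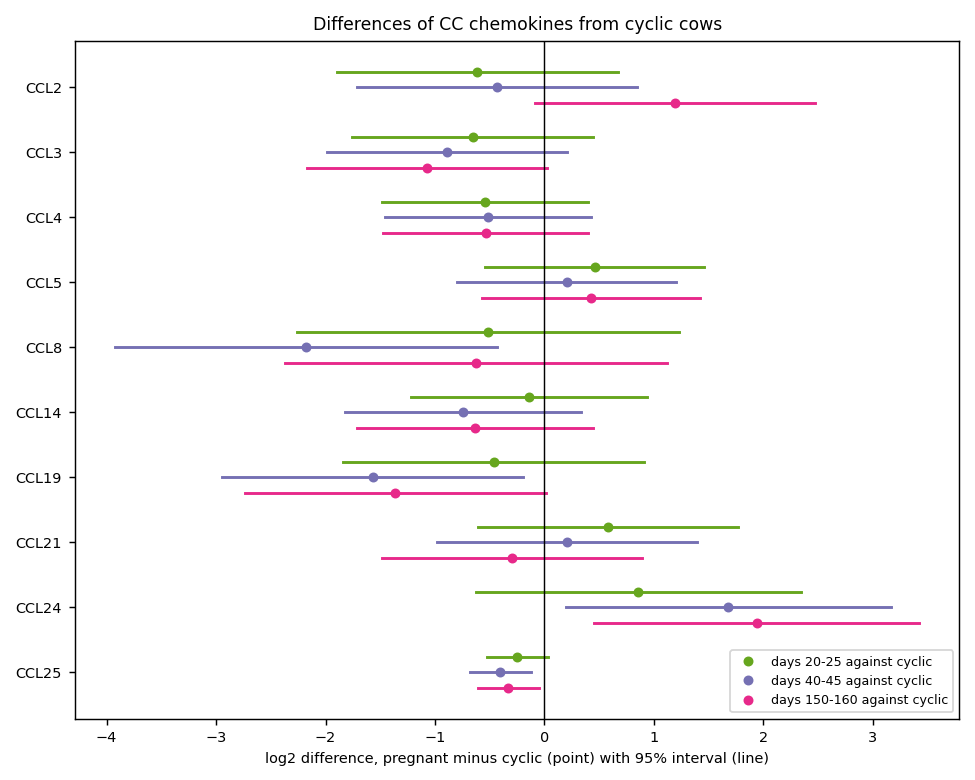
Log2 difference of each CC chemokine (rows) between each pregnancy stage and cyclic cows (horizontal axis); points are limma estimates, lines 95% intervals, and colours the 3 stages, drawn top to bottom in stage order. The CCL24 interval at days 150-160 runs from 0.45 to 3.42, that of CCL8 at days 40-45 from -3.92 to -0.43, and the CCL25 intervals are far narrower than the rest.

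The width of these intervals follows from the spread between cows. The pooled SD within groups was 1.28 for CCL8, 1.08 for CCL24, 1.00 for CCL19 and 0.93 for CCL2, and these 4 of 10 members lay above the 95th percentile of all tested probes (0.892). It was between 0.678 and 0.864 for CCL4, CCL5, CCL14, CCL3 and CCL21, above the median of 0.305. CCL25 was the exception, at 0.155, with only 6.98% of tested probes lower. Among probes of like mean level, within 0.5 on the log2 scale, the share with a smaller SD was 98.3% for CCL8 and 98.0% for CCL21 and 4.92% for CCL25. These are descriptions with no test. An interval lying wholly within 2-fold either way was found for 1 of 10 members in each comparison with cyclic cows, CCL25.

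**Figure D3:**
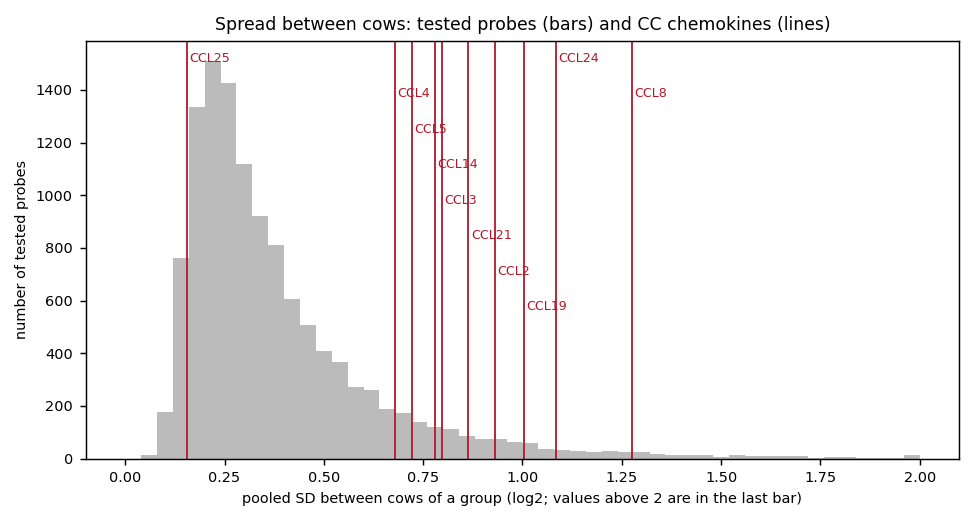
Number of tested probes (vertical axis) by pooled SD between cows of a group (horizontal axis, log2); red lines mark the CC chemokines. CCL25 at 0.155 lies left of the median of 0.305, and the other 9 lie in the right tail, up to 1.28 for CCL8.

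Part of the spread fell in the same cows. Cyclic replicate 4 was the highest of its group for 6 of 10 members and cyclic replicate 1 the lowest for 8 of 10, against 21.5% and 31.2% of all tested probes. Among cows of days 150-160, replicate 1 was the highest for 8 of 10 members and replicate 3 the lowest for 6 of 10, against 35.6% and 25.0% of probes. Marker levels were high or low in some of these cows and not in others. The summed level of 8 T cell markers was 0.88 in days 150-160 replicate 1, the highest of the 16 cows, and -0.82 in cyclic replicate 1, the lowest. The 7 granulocyte markers summed to 3.06 in cyclic replicate 4, and the other cyclic cows were at 1.29 to 1.99. The 15 genes of induction by NF-kB, the transcription factor that switches on many chemokines, summed to 4.397 in cyclic replicate 4 and to 4.35 in days 150-160 replicate 1, the highest values of their groups. Other values went another way. Cyclic replicate 4 was at -0.078 for T cell markers, below 2 of the other 3 cyclic cows, and at 4.21 for macrophage markers, below 4.69 in cyclic replicate 2. Days 150-160 replicate 3 had the highest granulocyte level (1.92) and the highest natural killer level (1.14) of its group. The part of these cells in the chemokine levels was not tested.

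**Figure D4:**
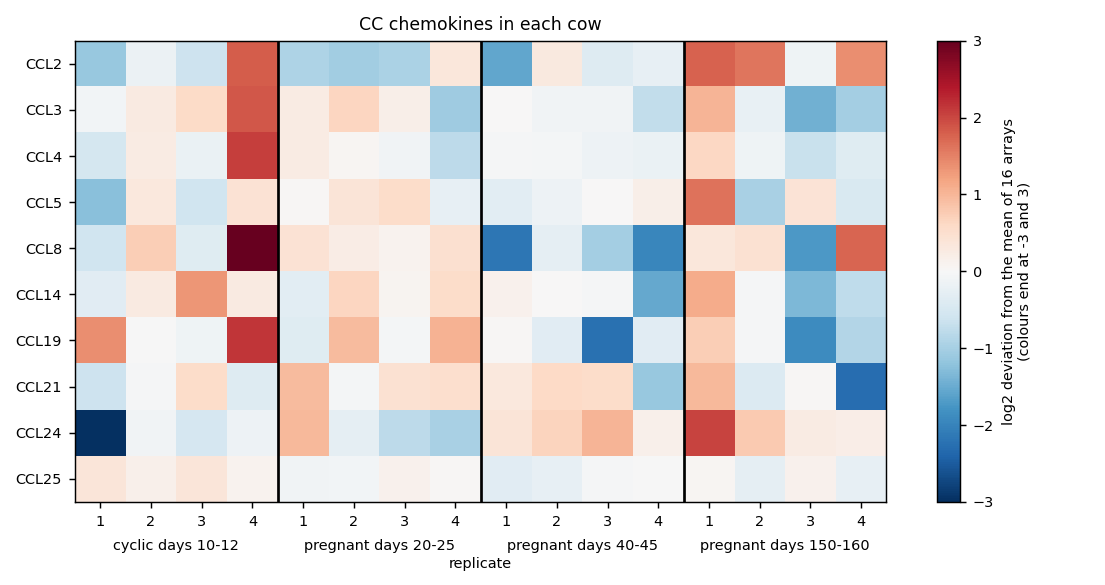
Deviation of each CC chemokine (rows) from its mean over the 16 arrays, as log2 colour, in each cow (columns, replicates 1 to 4 within each stage). Cyclic replicate 4 is high for CCL2, CCL3, CCL4, CCL8 and CCL19, and days 150-160 replicate 1 is the highest of its group for 8 of 10 members.

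Over the 16 cows, 45 pairs of members were correlated, and 39 correlations were positive, with a median Pearson r of 0.22. The share of positive correlations among pairs of other probes was not computed. After Benjamini-Hochberg adjustment 1 pair was below 0.05, CCL3 and CCL4. Their Pearson r was 0.85 (permutation p = 2e-05, adjusted p = 0.0009) and their Spearman rho 0.82 (permutation p = 0.0002, adjusted p = 0.009). Without the 2 cows farthest from the CCL3 median, cyclic replicate 4 and days 150-160 replicate 3, r was 0.78. It was 0.79 within slide 1, 0.88 within slide 2 and 0.85 on deviations from the group means. For the chromosome 19 neighbours CCL2 and CCL8, r was 0.63 (permutation p = 0.00796, adjusted p = 0.119) and rho 0.61 (adjusted p = 0.219). On deviations from the group means r was 0.85, and without the 2 cows farthest from the CCL2 median the overall r was 0.50. CCL3 and CCL14 gave r = 0.64 (permutation, adjusted p = 0.119). A negative pair, CCL24 and CCL25, gave r = -0.58 (permutation, adjusted p = 0.134). It was -0.59 without the 2 cows farthest from the CCL24 median and -0.27 on deviations from the group means. CCL4 and CCL8 gave r = 0.65 (permutation, adjusted p = 0.134). It was 0.21 without cyclic replicate 4, so it rests largely on that cow, and 0.15 without the 2 cows farthest from the CCL4 median. Within the slides it was 0.41 and 0.71, and on deviations from the group means 0.71.

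**Figure D5:**
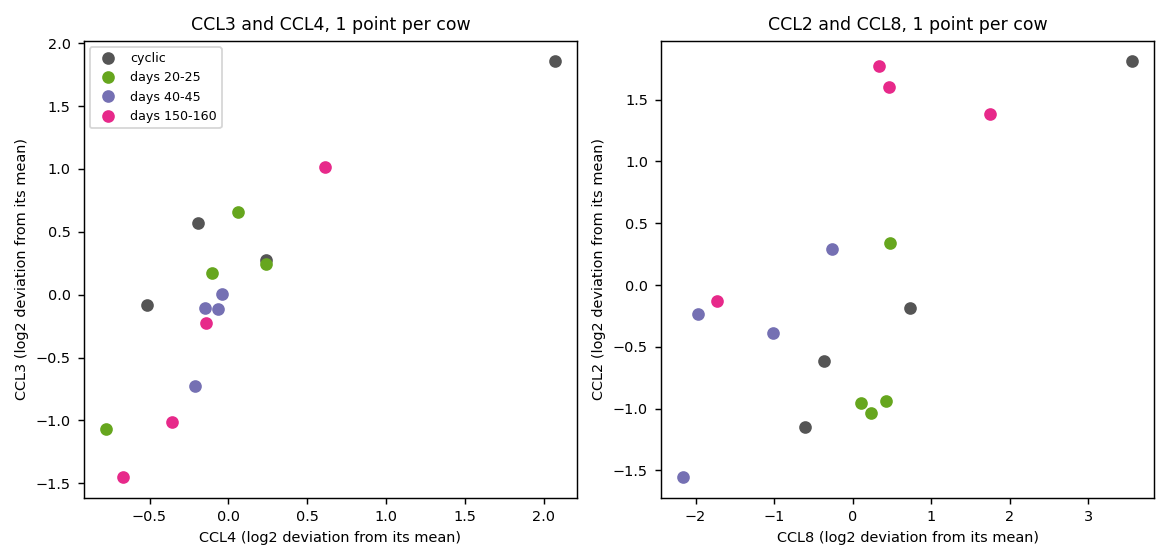
CCL3 against CCL4 (left) and CCL2 against CCL8 (right), each as the log2 deviation from its own mean over the 16 arrays; 1 point is 1 cow and colours are stages. Over all 16 cows CCL3 was higher where CCL4 was higher (r = 0.85). CCL2 and CCL8 tended to be high in the same cows of a stage (r = 0.85 on deviations from the group means). Over all 16 cows their r was 0.63 (permutation, adjusted p = 0.119).

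The genes most like each member over the 16 arrays were ranked by the mean absolute difference of centred log2 levels among tested probes. This ranking was planned for called members only, and is given as a description because none was called. CCL4 was closest to TNF, an inflammatory cytokine, at 0.25. CCL3 was closest to CCL4, at 0.33. CCL5 was closest to CD96, a receptor of T and natural killer cells, at 0.24. CCL21 was closest to RELN, which lymphatic endothelium also makes, at 0.31. CCL8 was closest to the cytokine IL1A and the prostaglandin synthase PTGS2, at 0.69 and 0.70, and CCL2 to the immediate early gene NR4A1, at 0.53. CCL14 was closest to GCNT2 at 0.34, CCL19 to SNAI2 at 0.55, CCL24 to FGG at 0.57 and CCL25 to CPSF4 at 0.10. The members' own mean absolute deviations were 0.40 for CCL4, 0.60 for CCL3, 0.50 for CCL5, 0.62 for CCL21, 1.01 for CCL8 and 0.90 for CCL2. They were 0.55 for CCL14, 0.79 for CCL19, 0.81 for CCL24 and 0.17 for CCL25.

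Fewer receptors than ligands were detected. Of 14 listed CC receptors and scavengers 11 were named on the array, and 4 were tested, with 0 called in any comparison. CCR8, CCRL2 and the scavenger ACKR2 were well above background on all 16 arrays. Their differences from cyclic cows were between -0.12 and 0.25 for CCR8, -0.22 and 0.05 for CCRL2, and -0.27 and 0.00 for ACKR2. CCR1, CCR3 and ACKR4 were well above background on 0 of 16 arrays. CCR7, the receptor of CCL19 and CCL21, was so on 4 of 16 arrays, CCR4 on 4, CCR9 on 2 and ACKR1 on 5. CCR2, CCR6 and CCR10 were not analysed here.

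CCL11 lies between CCL8 and CCL2 on chromosome 19. It was well above background on 0 of 4 cyclic arrays, and its level was -1.42 ± 1.68 on days 40-45 and 2.33 ± 0.56 on days 150-160 (SD, n = 4 each), with adjusted limma p of 0.000667 and 7.61e-06 against cyclic cows. In the same comparisons its neighbours CCL8 and CCL2 had adjusted p between 0.217 and 0.825. The difference between CCL11 and its neighbours was not tested. The longest run that any member probe shared with the CCL11 probe was 7 bases.

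Other genes of the chemokine system were counted in gene lists. Against cyclic cows, 0 of 13 tested genes of CC receptor signalling were called at any stage. Of 14 interferon-stimulated genes 0 were called against cyclic cows, although all 14 differences were positive on days 20-25, with a median of 0.80 against 0.04 over all genes. On days 150-160, 5 of 14 were called lower than on days 20-25, where 1.57% of all probes were called. Of 15 genes of induction by NF-kB, 1 was called, the endothelial adhesion molecule SELE, lower on days 150-160 (adjusted p = 0.0493), where it was well above background on 0 of 4 arrays. Of 12 genes that bind or process chemokines, 3 were called lower on days 150-160, where 7.98% of all probes were called. TNFAIP6, whose product binds chemokines, fell, with log2 differences of -2.67 on days 150-160 (adjusted p = 0.000216) and -2.02 on days 40-45 (adjusted p = 0.00563). NDST1 and EXT2, enzymes of heparan sulfate synthesis, fell on days 150-160, with log2 differences of -0.60 and -0.51 (adjusted p = 0.00808 and 0.0223).

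Markers of the cells that make or answer these chemokines were counted in the same way. Against cyclic cows, 0.293% of all probes were called on days 20-25, 1.23% on days 40-45 and 7.98% on days 150-160. Of 12 tested macrophage markers, CD68 fell, with log2 differences of -1.32 on days 40-45 and -1.57 on days 150-160 (adjusted p = 0.0223 and 0.00277), MRC1 fell by 1.03 on days 150-160 (adjusted p = 0.0217), and ITGAM was called higher (adjusted p = 0.00738), with 4 of 4 arrays of days 150-160 and 1 of 4 cyclic arrays well above background, so no size is given. Of 8 T cell markers, 5 lymphatic endothelial markers besides CCL21 and 2 eosinophil or mast cell markers, 0 were called against cyclic cows at any stage. Of 7 granulocyte markers, the cathelicidins CATHL1, CATHL3 and CATHL4 were called lower at each stage of pregnancy, where they were well above background on 0 of 12 arrays. The dendritic cell marker CD83 fell by 1.70 on days 150-160 (1 of 2 tested, adjusted p = 0.0138). XCL1, a chemokine of natural killer and T cells, fell, with log2 differences of -3.42 on days 40-45 and -4.07 on days 150-160 (1 of 7 tested, adjusted p = 0.0181 and 0.00215). JCHAIN, a plasma cell gene, fell, with log2 differences of -1.70 and -1.31 at these stages (1 of 4 tested, adjusted p = 0.0399 and 0.0422). Its list did not fall as a whole: 3 of the 4 differences were positive on days 40-45 and 2 of 4 on days 150-160.

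Markers of other cells of the gland were counted on days 150-160 too, where 7.98% of all probes were called, and no list was tested as a whole. The blood endothelial genes FLT1, ENG and TEK rose by 1.42, 1.13 and 0.85 (3 of 12 tested, adjusted p = 0.0157, 0.0147 and 0.035). The fibroblast genes COL1A2, THY1, COL1A1 and COL3A1 fell, with log2 differences of -2.72, -1.87, -1.63 and -1.13 (4 of 10 tested, adjusted p = 0.00145, 0.0156, 0.0472 and 0.0326). Of 9 luteal markers, the prostaglandin receptor PTGFR rose by 0.85 (adjusted p = 0.0221), and OXT, the gene of oxytocin, fell, with log2 differences of -7.97 (adjusted p = 3.44e-07) and, on days 40-45, -4.05 (adjusted p = 0.000534).

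The summed level of the macrophage list was 3.42 to 4.69 in cyclic cows, 3.17 to 4.09 on days 20-25, 3.18 to 3.97 on days 40-45 and 3.17 to 4.23 on days 150-160, and C1QA was well above background on 0 of 16 arrays. That of the lymphatic list without CCL21 was 1.66 to 4.11, 2.98 to 3.78, 3.62 to 4.15 and 2.70 to 4.24 in the same order. Among cows of days 150-160 this summed level did not order as CCL21 did. Replicate 4 had the lowest list level (2.70) and the lowest CCL21 (-0.24). Replicate 1, with the highest CCL21 (3.04), had a list level of 2.85, and replicate 2, with CCL21 at 1.65, had the highest list level (4.24). RELN, the gene closest to CCL21 over the 16 arrays (0.31), is itself in this list. T cell markers summed to -0.82 to 0.49, -0.12 to 0.34, -0.23 to 0.06 and -0.21 to 0.88, with CD4 well above background on 0 of 16 arrays. The part of these cells in the chemokine values was not tested.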

How the data were processed

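RNA of 16 corpora lutea was measured on 1-colour arrays of 15744 spots. Agilent Feature Extraction 9.5 read the scans, per the submitters' processing notes, and per the file headers the deposited processed signal is a background-subtracted, spatially detrended intensity on a linear scale, not scaled between arrays, with a surrogate for spots at background. The deposited value table is on a log2 scale and equals log2 processed signal minus a constant for each array, with a largest departure of 0.0046. That constant lay within 0.0145 of the 75th percentile of the array on the log2 scale. The deposited value table was used as an alternative.

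Here 536 control spots were left out and 220 outlier-flagged values set to missing. Values are log2 processed signal minus the 75th percentile of each array. Probes well above background on at least 3 of 4 arrays of a group were tested, 11941 in all and 11940 for days 150-160. Groups were compared over all 16 arrays with limma 3.58.1 in R 4.3.3 (lmFit and eBayes, 12 residual degrees of freedom), two-sided, with Benjamini-Hochberg adjustment over all tested probes. Correlations used 100000 permutations in scipy 1.17.1. Tested on simulated data of 11830 probes for days 150-160 against cyclic cows, the fit recovered 60% of log2 changes of 1 and 96% of those of 2. The changed probes were drawn at random from all of these, each with its own spread. Of the 10 members, 9 had a pooled SD above the median of all tested probes (0.305). These shares therefore do not say how often a change of a member would be found. The number of arrays limits the precision.

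Probes were named through the RefSeq gene table of the assembly ARS-UCD2.0, which also gave chromosomes and neighbours. Sequences are those of the deposited scanner files. By the naming rule all members are named in every comparison, the tested CC receptors apart from 1 not reported here, and up to 4 called genes of each other list. The list genes were given by their probe with the highest mean. The members, lists and tests were chosen with earlier results of these data known. Alternatives were normexp, quantile normalization, the deposited values, other filters on dim probes, a floor at background, fits of 2 groups, slide as a block or alone, the replicate number as a block, and leaving out each array. The replicate numbers of the labels were not taken as pairs of cows in the main fit. On deviations from the group means, same-numbered arrays of different groups correlated at 0.108 on average, from a lowest value of 0.001. Arrays of other numbers and groups correlated at -0.036 on average. Numbers 1 and 2 were on slide 1 and numbers 3 and 4 on slide 2, so number and slide are not separate.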

Additional observations from a re-analysis of the deposited data

Results flagged for a closer look

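In groups of 4 cows, 1 cow stood apart from the other 3 by Dixon's test (gap over range above 0.829) in 6 of 56 groups tested, over the members and the tested receptors, and chance gives about 1 in 20. CCL2 of days 20-25 was 0.876 in replicate 4, and the other 3 cows were between -0.506 and -0.405. On days 40-45, replicate 4 was apart for 3 members: CCL3 was -4.64 (others -4.03 to -3.90), CCL14 was -2.18 (others -0.68 to -0.51) and CCL21 was 0.929 (others 2.38 to 2.64). CCL24 was -7.07 in cyclic replicate 1, with the others between -3.84 and -3.45. CCR8 was -4.99 in days 20-25 replicate 4, with the others between -4.12 and -4.09. Cyclic replicate 4, the highest cyclic cow for 6 of 10 members, was apart by this test for 0.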

How the results depend on the processing

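The count of called CC chemokines was 0 in all 6 comparisons under the 11 alternatives and without each of the 16 arrays in turn. Of 1614 values of single members under these settings, 68 changed sign, 24 moved by more than 1 SD and 0 passed the threshold; the smallest adjusted p was 0.0566. The 4 cows per group and the spread between them limit every interval, and CCL19 is limited by background as well.

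The number of probes called, which sets the background for the members, moved more. On days 20-25 against cyclic it was 35, and 2 in a fit of these groups alone, 78 with slide as a block, 3 and 6 within the slides and 4 to 85 without 1 array. On days 40-45 against cyclic it was 147, and 94 after normexp, 90 with no filter, 73 with these groups alone, 51 and 12 within the slides and 63 to 226 without 1 array. On days 150-160 against cyclic it was 953, and 314 with these groups alone, 250 and 21 within the slides and 580 to 1106 without 1 array. On days 40-45 against days 20-25 it was 4, and 8 with no filter, 1 when detected on all 16 arrays, 7 with these groups alone, 7 with slide as a block, 0 and 0 within the slides and 0 to 8 without 1 array. On days 150-160 against days 20-25 it was 187, and 118 with these groups alone, 3 and 7 within the slides and 88 to 243 without 1 array. On days 150-160 against days 40-45 it was 5, and 9 on the deposited values, 17 with no filter, 2 when detected on all 16 arrays, 9 with a floor at background, 1 with these groups alone, 13 with slide as a block, 1 and 0 within the slides and 2 to 19 without 1 array. Fits within a slide hold 8 arrays; the cause of the other moves was not tested.

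With the replicate number as a block the counts in the same order were 39, 199, 1087, 0, 213 and 14, with 0 members called. Arrays of the same number in different groups correlated at 0.001 to 0.291, and 9 of 16 arrays correlated best with their own number.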
